A study of Homo sapiens with 8 samples.

Results

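The AC133 difference shared by 2 unlike tumour lines was the gap in transcript level between cells sorted as AC133 high and cells sorted as AC133 negative, taken over the colon carcinoma line Caco2 and the melanoma line WM115 together. It rests on 8 arrays, which are all the arrays analysed here. They are 2 Caco2 AC133 high, 2 WM115 AC133 high, 2 Caco2 AC133 negative and 2 WM115 AC133 negative arrays, and each high array has a negative array from the same sort, so there were 4 sorts. Only probes that both lines express were kept. The filter asked for a detection p-value, which ranks a probe against negative controls, under 0.05 on at least 2 arrays of Caco2 and at least 2 of WM115, and it left 11382 of the 22184 probes, for 9371 named genes. A further 1384 probes were detected in Caco2 only and 1658 in WM115 only, and these are not described.

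AC133 is an antibody against an epitope of CD133, the pentaspan membrane protein that PROM1 encodes. CD133 sits on microvilli and other membrane protrusions, and AC133 staining has been used to isolate cells that start tumours. Binding of the antibody can vary without a matching change in PROM1 transcript, so a sort on AC133 is a sort on an epitope. The high cells were the brightest 10% by AC133 staining and the negative cells were those that the sort called negative, per the labels. The Caco2 cells of both groups carried a lentiviral reporter with the mouse Melk promoter and came from isolated clones of that culture, 2 of which were used, and the clone behind each sort is not given. No such reporter is described for WM115. The labels call the arrays of a group biological duplicates.

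The lines carried their own markers. All 7 Caco2 markers on the array, among them VIL1, CDH1, EPCAM and CDX2, were detected on all 4 Caco2 arrays, and 6 of the 7 WM115 markers, among them MLANA, SOX10 and PMEL, were detected on all 4 WM115 arrays. CDH1, CDX2, KRT19 and VIL1 were detected on none of the WM115 arrays, and MCAM, MLANA, S100B and SOX10 on none of the Caco2 arrays. The remaining markers were also detected in the other line. These were KRT18 on 4, EPCAM on 2 and KRT8 on 1 of the WM115 arrays. On the Caco2 arrays they were PMEL and VIM on 4 and MITF on 3. Per array, 53.7% to 59.2% of all probes were detected, with a median of 41 to 42 beads behind each value. One array stood apart. It was the sort 2 array of WM115 negative cells, where 113 of the kept probes exceeded each of the 3 remaining WM115 arrays by over 1 log2 unit and 21 fell short of them by as much. On every other array the corresponding counts were 0 to 6 and 0 to 41. Values without that sort are given where they end or make a call or move a gene's shared difference or a list's median by over 1.5 times. Such values weight the remaining sorts equally unless stated, so they lean towards Caco2.

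Of the 11382 probes, 4 passed the threshold, an adjusted p under 0.05 in limma with the 4 sorts as blocks, and this is 0.0351% of them. All 4 were higher in AC133 high cells (0.0351%), and 0 probes were lower (0%). At an unadjusted p under 0.05 in limma, 417 probes (3.66%) were lower and 378 (3.32%) were higher. In these pooled cells a change in the share of cells with a transcript and a change in its level per cell cannot be told apart. The genes were PROM1, EPHA4, EEF1A2 and CEACAM1, and all were detected on all 8 arrays. Each is a gene of a cell surface protein apart from EEF1A2, which encodes a translation elongation factor found mainly in muscle, heart and neurons.

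PROM1 serves as a check of the sort, since the antibody selects on its protein. PROM1 had a normalized log2 signal of 10.95 and 11.12 in Caco2 AC133 high cells and 9.60 and 9.54 in WM115 AC133 high cells, against 6.65 and 7.06 in Caco2 AC133 negative cells and 5.72 and 6.22 in WM115 AC133 negative cells. The lowest high array lay above the highest negative array, and the 2 groups did not overlap in either line. The shared difference was 3.89 log2 units (SE 0.16), a 14.8-fold higher level with a 95% interval of 3.51 to 4.26 log2 units and a limma adjusted p of 8.7e-05. PROM1 was also the single probe (0.00879%) that passed when both lines had to show the difference at once. An exact sign-flip test over its 4 sort differences gave a two-sided p of 0.125, which is the smallest that 4 sorts allow, so every test here leans on the spread that limma shares across probes.

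EPHA4, a receptor tyrosine kinase that binds ephrins on neighbouring cells, had a log2 signal of 8.43 and 8.09 in Caco2 AC133 high cells and 8.04 and 7.95 in WM115 AC133 high cells, against 7.25 and 6.65 in Caco2 AC133 negative cells and 6.75 and 6.54 in WM115 AC133 negative cells. The high and negative arrays did not overlap, and its 4 sort differences lay between 1.18 and 1.44 log2 units, the narrowest spread of the called genes. The shared difference was 1.33 (SE 0.11), or 2.51-fold, with a limma adjusted p of 0.0094. The limma adjusted p was 0.0708 without Caco2 sort 1, 0.112 without Caco2 sort 2 and 0.0626 without WM115 sort 1. The call thus needed each of these sorts, while the adjusted p was 0.0115 without WM115 sort 2. In the fit without WM115 sort 1, WM115 rests on sort 2 alone, whose negative array stood apart.

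EEF1A2 had a log2 signal of 8.65 and 8.99 in Caco2 AC133 high cells and 10.93 and 9.52 in WM115 AC133 high cells, against 6.99 and 7.58 in Caco2 AC133 negative cells and 9.91 and 7.83 in WM115 AC133 negative cells. In WM115 the groups overlapped: both arrays of sort 1 were above both arrays of sort 2, and the high array was the higher one within each sort. The shared difference was 1.45 (SE 0.14), or 2.73-fold, with a limma adjusted p of 0.022, and it was 1.67 and 1.41 in the Caco2 sorts and 1.02 and 1.69 in the WM115 sorts. With no sort block the adjusted p was 0.64, and without Caco2 sort 1 or Caco2 sort 2 it was 0.179 and 0.186.

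CEACAM1, an adhesion protein of the immunoglobulin family, had a log2 signal of 7.66 and 7.88 in Caco2 AC133 high cells and 11.59 and 11.24 in WM115 AC133 high cells, against 6.13 and 5.94 in Caco2 AC133 negative cells and 10.66 and 9.71 in WM115 AC133 negative cells. The groups did not overlap within a line. The shared difference was 1.48 (SE 0.16), or 2.79-fold, with a limma adjusted p of 0.043. CEACAM1 no longer passed without Caco2 sort 1 (difference 1.47, adjusted p 0.285) or Caco2 sort 2 (1.33, 0.202). A second CEACAM1 probe was detected on 4 arrays, with fewer than 2 in 1 of the lines, and was therefore not tested. It differed by 1.78 in WM115 and by 0.02 in Caco2, and 1 of these values rests on signals near background. With no sort block the adjusted p was 0.129 for CEACAM1 and 0.071 for EPHA4.

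**Figure D1:**
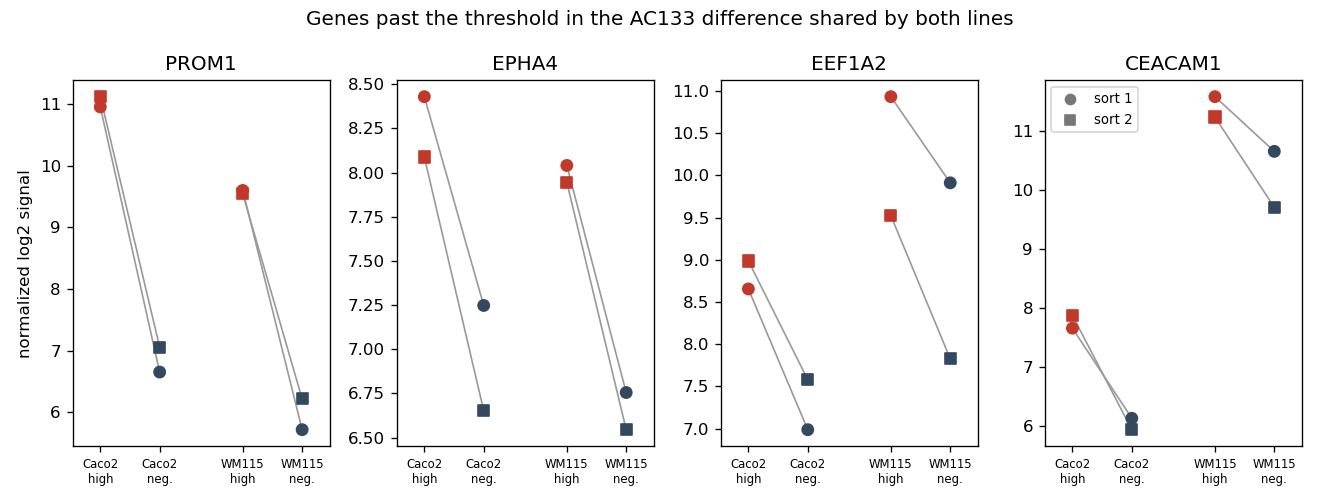
Normalized log2 signal of PROM1, EPHA4, EEF1A2 and CEACAM1 on each of the 8 arrays, AC133 high in red and AC133 negative in dark blue, with a line joining the arrays of a sort (circles for sort 1, squares for sort 2). Each line slopes down to the negative array, and the vertical scales differ between genes.

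The start regions of the genes past the threshold are shown as sequences only. All were higher in AC133 high cells of both lines, but PROM1 alone passed when both lines had to show the difference at once. Joint control of these genes was not tested. Of the 4 genes, 3 were in the RefSeq promoter table (GRCh38.p14) with 300 bases around the start, and EEF1A2 is named only. Each is printed 5′ to 3′ on the gene's own strand, which is the minus strand for all 3, with motif matches on either strand in capitals. The letters searched were TATAAA for the TATA box, CCAAT for the CCAAT box, GGGCGG for the GC box and TTTGAA for the cell cycle element named CHR. PROM1 lies at chr4:16083974-16084273, EPHA4 at chr2:221574153-221574452 and CEACAM1 at chr19:42528432-42528731.
PROM1: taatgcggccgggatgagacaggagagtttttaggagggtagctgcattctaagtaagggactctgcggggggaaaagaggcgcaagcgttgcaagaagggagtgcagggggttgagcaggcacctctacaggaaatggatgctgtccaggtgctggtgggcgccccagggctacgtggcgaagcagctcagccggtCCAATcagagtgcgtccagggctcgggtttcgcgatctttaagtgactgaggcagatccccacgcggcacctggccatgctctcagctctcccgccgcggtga
EPHA4: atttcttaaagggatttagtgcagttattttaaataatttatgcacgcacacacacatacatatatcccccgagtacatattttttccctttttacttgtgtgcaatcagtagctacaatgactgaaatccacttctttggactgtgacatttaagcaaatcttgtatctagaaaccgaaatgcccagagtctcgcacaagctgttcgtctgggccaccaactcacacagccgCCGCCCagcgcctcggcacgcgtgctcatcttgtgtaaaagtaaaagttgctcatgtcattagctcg
CEACAM1: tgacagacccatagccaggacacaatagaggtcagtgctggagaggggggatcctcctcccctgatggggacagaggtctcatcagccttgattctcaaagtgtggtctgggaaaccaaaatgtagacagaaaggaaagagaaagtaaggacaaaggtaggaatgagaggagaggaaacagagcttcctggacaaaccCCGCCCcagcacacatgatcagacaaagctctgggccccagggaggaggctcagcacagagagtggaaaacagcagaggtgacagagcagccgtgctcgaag
PROM1 held 1 CCAAT match, EPHA4 held 1 GGGCGG match on its other strand and CEACAM1 held 1 GGGCGG match on its other strand. Among the 35116 promoters of the table, 34.6% held CCAAT, 45% GGGCGG, 15.2% TTTGAA and 11.5% TATAAA. The letters CG next to each other occurred 18 times in PROM1, 12 times in EPHA4 and 3 times in CEACAM1, against a median of 14 over all promoters.

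MELK, the kinase whose mouse promoter drives the reporter, had a log2 signal of 9.57 and 9.63 in Caco2 AC133 high cells and 8.86 and 9.13 in WM115 AC133 high cells, against 9.29 and 9.47 in Caco2 AC133 negative cells and 8.91 and 8.76 in WM115 AC133 negative cells. It was higher in the high cells of 3 of the 4 sorts, and the difference was -0.05 log2 units in WM115 sort 1. The shared difference of 0.19 (95% interval -0.08 to 0.46) did not pass, with a limma adjusted p of 0.82.

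Beyond these, 845 probes (7.42%) had a higher signal in AC133 high cells in all 4 sorts and 831 (7.3%) had a lower one. Counted with 1 probe per gene, these were 718 of the 9371 genes (7.66%) and 725 (7.74%). No further gene passed the threshold, so the genes with the smallest p of each direction are given as values. Among the higher ones, CPN1, the catalytic chain of carboxypeptidase N, differed by 1.28 (SE 0.19) and had an adjusted p of 0.224. Its log2 signal was 8.32 and 7.55 in Caco2 AC133 high cells and 7.90 and 8.07 in WM115 AC133 high cells, against 6.68 and 5.99 in Caco2 AC133 negative cells and 7.39 and 6.65 in WM115 AC133 negative cells. The groups did not overlap in either line, and in WM115 sort 1 the gap was 0.51, the smallest of the 4. Without WM115 sort 1 CPN1 passed, with an adjusted p of 0.032.

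QPCT, an enzyme that cyclizes the N-terminal glutamine of peptides, differed by 0.85 (adjusted p = 0.155 in limma), with 5.68 and 6.09 in Caco2 AC133 high cells and 11.01 and 10.39 in WM115 AC133 high cells, against 4.72 and 5.12 in Caco2 AC133 negative cells and 10.13 and 9.78 in WM115 AC133 negative cells. Without WM115 sort 2 its adjusted p was 0.0492. LRATD2 had 4 nearly equal differences of 0.65 to 0.71 log2 units and an adjusted p of 0.224. The lysosomal protease CTSV differed by 0.75, the carboxypeptidase CPVL by 0.64, the cytosolic isocitrate dehydrogenase IDH1 by 0.70, the cyclic GMP phosphodiesterase PDE5A by 0.77 and the steroid dehydrogenase HSD17B14 by 0.64, with adjusted p-values of 0.266 to 0.33. These 5 were above 0 in all 4 sorts by the rule that named them.

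Among the lower ones, SH3BGRL3 had the smallest p, with 4 differences of -0.82 to -0.66 log2 units and an adjusted p of 0.224. The calcium-dependent membrane binder ANXA1 had a log2 signal of 6.97 and 7.55 in Caco2 AC133 high cells and 9.16 and 9.68 in WM115 AC133 high cells, against 8.12 and 8.24 in Caco2 AC133 negative cells and 9.99 and 11.41 in WM115 AC133 negative cells. Its shared difference was -1.10 (SE 0.17; adjusted p = 0.259). In both lines the groups did not overlap, and the value of the WM115 negative array of sort 2 was the highest of all.

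S100A4, a calcium-binding protein linked to cell movement, had the lowest shared difference of the named genes, -1.86 (SE 0.38; adjusted p = 0.397). Its log2 signal was 9.30 and 9.35 in Caco2 AC133 high cells and 5.12 and 5.12 in WM115 AC133 high cells, against 10.31 and 10.43 in Caco2 AC133 negative cells and 6.90 and 8.69 in WM115 AC133 negative cells. A second S100A4 probe differed by -1.55 and was also below 0 in all 4 sorts. Without WM115 sort 2 the adjusted p was 0.0492 at a difference of -1.29.

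CD44, the hyaluronan receptor that is itself used to sort tumour-initiating cells, differed by -0.78 (SE 0.17; adjusted p = 0.423). It had 8.92 and 8.91 in Caco2 AC133 high cells and 11.34 and 11.23 in WM115 AC133 high cells, against 10.27 and 9.33 in Caco2 AC133 negative cells and 11.82 and 12.12 in WM115 AC133 negative cells. CD44 was below 0 in all 4 sorts by the rule that named it. CAMK2N1, an inhibitor of calcium/calmodulin-dependent kinase II, differed by -1.06, the zinc finger gene ZNF362 by -0.69, the cholesterol acyltransferase LCAT by -0.58, the ribonuclease ZC3H12A by -0.68, the transcription factor TCF3 by -0.60, FJX1 by -0.54 and the antigen presentation chaperone TAPBP by -0.60, with adjusted p-values of 0.34 to 0.478. ROR1, a receptor for Wnt ligands, differed by -0.55. It was not detected on either WM115 AC133 high array, so its gap in WM115 is only a bound, at least 1.14-fold lower in the high cells. Such a bound sets the mean of the detected group against, per array, the lowest signal of any detected probe or the probe's own value, whichever is higher.

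**Figure D2:**
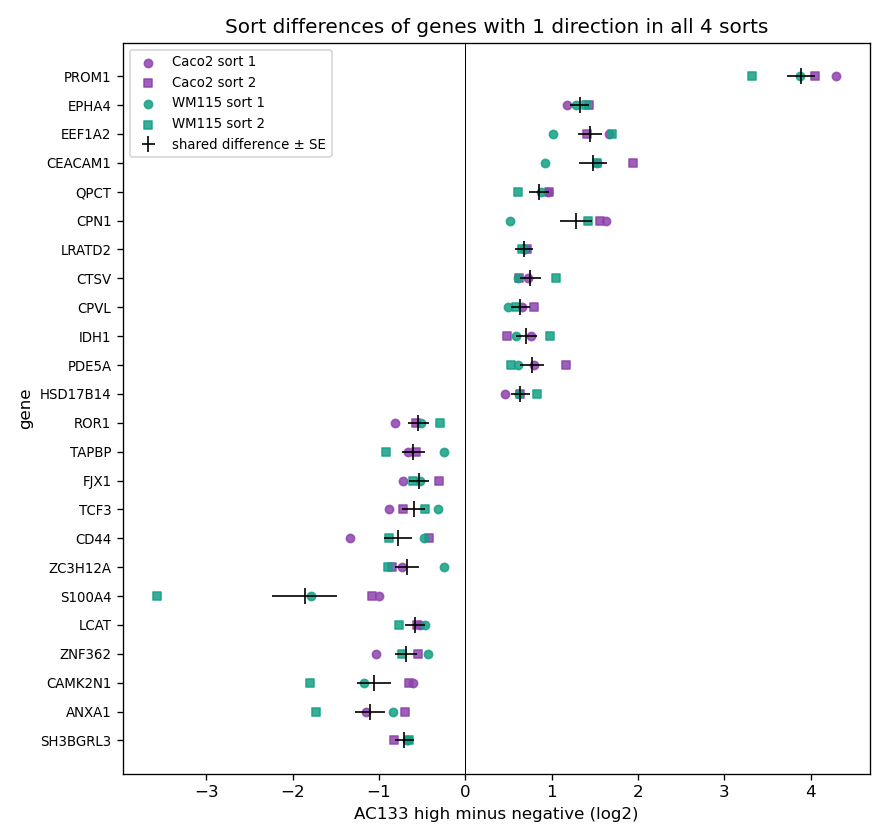
AC133 high minus negative in each of the 4 sorts, in log2 units, for the 12 higher and 12 lower genes with the smallest p among those with 1 direction in all 4 sorts. Black bars give the shared difference and its SE, and S100A4 in WM115 sort 2 is the point farthest to the left.

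How far the lines went together was described over all 11382 probes. The difference had the same sign in both lines for 5943 probes (52.2%). The Pearson correlation of the Caco2 and WM115 differences was 0.089, and 0.071 without PROM1. The highest correlation was between sorts of different lines. Caco2 sort 2 correlated at 0.32 with WM115 sort 1 and at -0.18 with WM115 sort 2, while Caco2 sorts 1 and 2 correlated at 0.27 and WM115 sorts 1 and 2 at -0.01. Caco2 sort 1 correlated at -0.06 with WM115 sort 1 and at 0.18 with WM115 sort 2. The arrays share 1 slide and their normalization, and probes are not independent, so these values describe the arrays. The SD of the differences over probes ran from 0.28 in WM115 sort 1 to 0.43 in WM115 sort 2.

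Whether the AC133 difference depended on the line was tested by an interaction term. No probe passed (0%) in limma or in the methods' t-test, while 666 (5.85%) had an unadjusted p under 0.05 in limma. A p that misses the threshold does not show that the lines were alike. On simulated data this term missed large changes placed in 1 line only, so a count of 0 says little here. For the called genes Caco2 minus WM115 was 0.58 (SE 0.27) for PROM1, -0.03 (SE 0.23) for EPHA4, 0.18 (SE 0.29) for EEF1A2 and 0.50 (SE 0.29) for CEACAM1.

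The genes with the smallest interaction p are given as values, Caco2 minus WM115. ENC1 had a difference of 0.76 in Caco2 and -1.65 in WM115, a gap of 2.41 (SE 0.23; adjusted p = 0.146 in limma). VCAN, a matrix proteoglycan, had 6.54 and 6.49 in Caco2 AC133 high cells and 6.29 and 5.95 in WM115 AC133 high cells, against 4.48 and 4.68 in Caco2 AC133 negative cells and 6.78 and 7.09 in WM115 AC133 negative cells. It was not detected on the Caco2 AC133 negative arrays, which makes the Caco2 gap at least 3.31-fold. PCDH7, a protocadherin, EPAS1, the hypoxia-inducible factor 2 alpha subunit, and MMD had gaps of 2.15, 1.96 and 1.59 with Caco2 the higher. Their limma adjusted p-values were 0.252 to 0.336. A second tested PCDH7 probe, detected on 6 arrays, differed by 0.32 in Caco2 and -0.53 in WM115, against 1.48 and -0.66 at the brighter probe. In the other direction TPD52L1 had a gap of -2.26, CST1 of -2.15, the Wnt feedback inhibitor NKD1 of -1.64, the oxygen-sensing prolyl hydroxylase EGLN1 of -1.59 and MOB3B of -1.55 (adjusted p 0.187 to 0.262). The NKD1 difference was -1.74 in Caco2. In WM115 it was detected on neither array of sort 1, so its level there is near background and the gap between lines is uncertain. In a fit without WM115 sort 1, WM115 would rest on sort 2 alone, whose negative array stood apart. No gene's call for the line difference is therefore given from that fit.

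**Figure D3:**
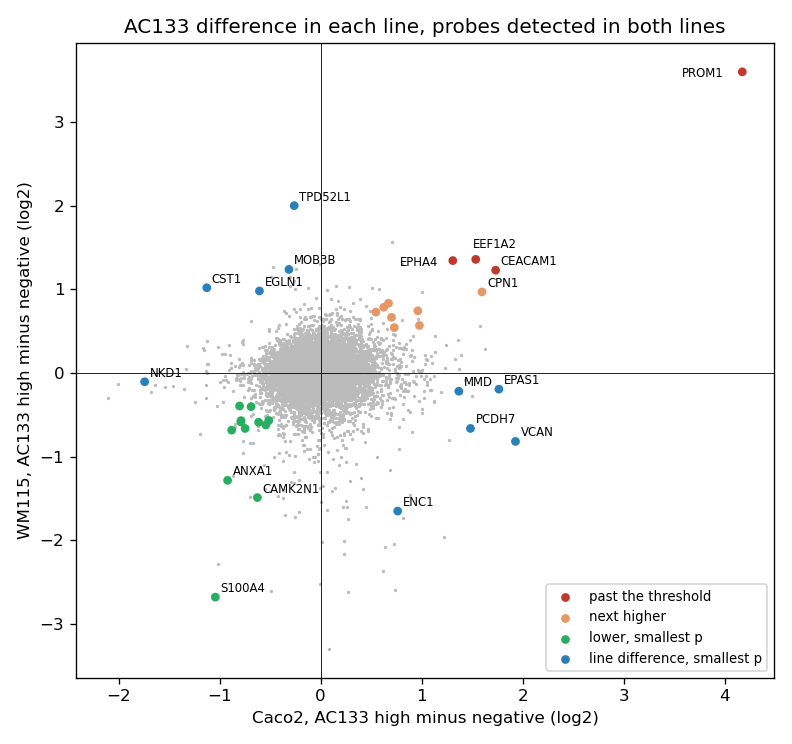
AC133 high minus negative in Caco2 (horizontal, log2) and in WM115 (vertical, log2) for the 11382 probes detected in both lines, each point a probe. PROM1 stands alone at the upper right, EPHA4, EEF1A2, CEACAM1 and CPN1 follow on the same side, and the line-difference genes lie off the diagonal.

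Gene lists are described by their counts with 1 probe per gene, beside the same counts over all 9371 genes, of which 4673 had a shared difference above 0 and 4698 below it. Genes of G2 and mitosis mostly had higher values in AC133 high cells. Of 66 tested, 60 had a shared difference above 0 and 17 (25.8%) were higher in all 4 sorts, beside 7.66% of all genes. None was lower in all 4 sorts and none passed the threshold. Their median was 0.16 log2 units, against -0.0004 over all genes, and it was -0.003 and 0.11 in the Caco2 sorts and 0.32 and 0.25 in the WM115 sorts. HMMR, a hyaluronan-binding spindle protein, differed by 0.51, the centromere histone CENPA by 0.58 and cyclin A2 (CCNA2) by 0.35, with adjusted p-values of 0.478 to 0.594.

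Genes of S phase and DNA replication lay on the other side. Of 52 tested, 40 had a difference below 0 and 14 (26.9%) were lower in all 4 sorts, beside 7.74% of all genes, and the median was -0.10. None passed the threshold. The G1/S cyclins CCNE2 and CCNE1 each differed by -0.40 and the ubiquitin ligase adaptor DTL by -0.34. Over the 3 sorts other than WM115 sort 2, 46.2% of the list was lower in every sort, beside 17.8% of all genes, and 33.3% of the G2 and mitosis list was higher, beside 15% of all genes. Replication-dependent histones had 21 of 24 values below 0, with a median of -0.14, and the sort medians were -0.03 and -0.34 in Caco2 and 0.01 and -0.04 in WM115. Without Caco2 sort 2 the histone median was -0.06. Among 24 cell cycle inhibitors 12 lay above 0 and 12 below it, and CDKN1A, which encodes p21, differed by -0.11 in Caco2 and -0.68 in WM115. GAS6, a ligand of the AXL and MER receptors, differed by -1.09 and was lower in all 4 sorts, with -2.32 in WM115 sort 2 and -0.68 over the 3 other sorts.

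S100 proteins and the genes of the actin cytoskeleton mostly had lower values. All 7 tested S100 genes had a difference below 0, with a median of -0.44, and 4 (57.1%) were lower in all 4 sorts, beside 7.74% of all genes. Their sort medians were -0.46 and -0.61 in Caco2, -0.04 in WM115 sort 1 and -0.57 in WM115 sort 2. After S100A4, S100A3 differed by -1.65, with -3.65 in WM115 sort 2, and by -0.98 over the 3 other sorts. S100A13 differed by -0.44 at its brighter probe and by 0.16 at another tested probe. In the actin, SRF and YAP target list TAGLN2 differed by -0.71, CSRP1 by -0.60 and ACTG2 by -0.79 (-0.49 without WM115 sort 2). Of its 31 genes 28 were below 0, 8 (25.8%) in all 4 sorts, beside 7.74% of all genes, with a median of -0.22. This median was -0.63 in WM115 sort 2 and -0.12, -0.04 and -0.02 in the other sorts, and it was -0.06 over those 3 sorts. Some markers of other cells moved on the WM115 negative array of sort 2. Summed over the 18 fibroblast and endothelial markers, the linear signal was 2020 and 1655 in WM115 AC133 high cells, against 1300 and 2846 in WM115 AC133 negative cells, and 1056 and 915 in Caco2 AC133 high cells, against 754 and 553 in Caco2 AC133 negative cells. Of the 18, 8 were detected on no Caco2 array and 7 on no WM115 array, so background signal enters each sum. The brightest marker weighs most in each sum. In WM115 it was LUM (log2 10.60 and 10.26 in high cells, 9.78 and 11.02 in negative cells). In Caco2 it was PDGFRA (9.26 and 8.75 in high cells, 8.38 and 7.12 in negative cells). The collagen gene COL1A1 had a log2 signal of 8.28 on the WM115 negative array of sort 2 and 4.38 to 4.97 on every other array, while POSTN, COL1A2 and CDH5 were detected on none of the 8. The 19 mesenchymal and matrix genes had a median of -1.15 in WM115 sort 2, against -0.46 in WM115 sort 1 and 0.11 and 0.31 in the Caco2 sorts. Their shared median was -0.24. Without WM115 sort 2 it was 0.12 with the 3 other sorts weighted equally, and -0.06 with the lines weighted equally. The part of these markers in the lists was not tested. No gene of the S100, actin or mesenchymal lists passed the threshold.

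**Figure D4:**
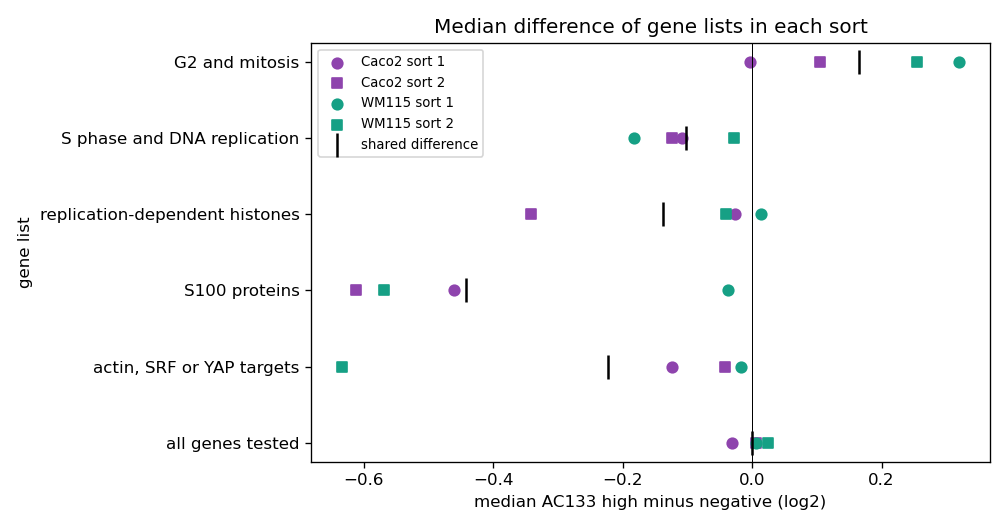
Median AC133 high minus negative, in log2 units, of 5 gene lists and of all genes tested, in each of the 4 sorts (coloured points) and in the shared fit (black bar). The G2 and mitosis medians lie above 0 in 3 sorts and at -0.003 in Caco2 sort 1, the S phase medians below 0, and the actin list is far lower in WM115 sort 2 than in the other sorts.

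The list of CD133 partners and membrane protrusions holds PROM1, whose protein the sort selected. Of its other genes, the motor MYO6 differed by 0.42 and the bundling protein PLS1 by 0.43, with -0.01 in Caco2 sort 1. Without PROM1, 3 of 20 genes (15%) were higher in all 4 sorts and 1 (5%) was lower, beside 7.66% and 7.74% of all genes. Among markers used for tumour-initiating cells other than PROM1, 2 of 12 (16.7%) were higher and 2 (16.7%) lower, beside the same shares of all genes. The polycomb gene BMI1 differed by 0.34 and the adhesion gene L1CAM by -0.71. In lists this small a share rests on few genes. The Eph list had 10 genes tested, and next to EPHA4 its ligand-side member EFNB1 differed by -0.48. EFNB1 was not detected on the WM115 AC133 high arrays, where the gap is at least 1.49-fold.

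Single members of other lists are given as values, and none passed the threshold. The transcription factor subunits NFKB2 and RELB differed by -0.57 and -0.63 and the adhesion receptor ICAM1 by -0.41. Without WM115 sort 2 RELB differed by -0.40 and ICAM1 by -0.25. FOSL1 and JUND, subunits of AP-1, differed by -0.49 and -0.37. The lipogenic regulator SREBF1 differed by -0.40 and the lipid droplet protein PLIN2 by 0.36, with 1 direction in all 4 sorts. The sialyltransferase ST3GAL6 differed by 0.63 and the receptor-like kinase PTK7 by -0.72. IFITM2 differed by -1.04 and was not detected on the Caco2 AC133 high arrays, where the gap is at least 1.79-fold, and its shared difference was -0.68 without WM115 sort 2. The receptor chain CD74, listed as a blood cell marker, differed by -0.73. It was detected on 2 WM115 arrays, with 4.58 and 5.06 in WM115 AC133 high cells, against 4.55 and 6.31 in WM115 AC133 negative cells. In WM115 the high cells thus had the lower CD74 value in sort 2 only. Summed over the 20 blood markers on the array, the linear signal was 3281 and 4230 in Caco2 AC133 high cells and 4044 and 3327 in WM115 AC133 high cells, against 4678 and 6077 in Caco2 AC133 negative cells and 3489 and 2108 in WM115 AC133 negative cells. The high cells thus had the lower sum in Caco2 and the higher sum in WM115, with 10 of the 20 markers detected on no array of a line. The brightest marker of each line weighs most in these sums. LYZ had a log2 signal of 11.29 and 11.77 in Caco2 AC133 high cells, against 11.93 and 12.36 in Caco2 AC133 negative cells. FCER1G had 11.49 and 11.22 in WM115 AC133 high cells, against 11.10 and 10.09 in WM115 AC133 negative cells. CD14 in Caco2 and CD68 in WM115 went the other way in both sorts. The part of these markers in the results was not tested.

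Metabolic and housekeeping lists had shares on both sides of the background. Of 60 ribosomal protein genes 7 (11.7%) were lower in all 4 sorts and 1 (1.67%) was higher, with a median of -0.04. Of 70 oxidative phosphorylation genes 4 (5.71%) were lower and 2 (2.86%) higher, with NDUFS1 of complex I at 0.32 and UQCRH of complex III at -0.35. Among 36 genes of the unfolded protein and amino acid stress response 2 were higher (5.56%) and 2 lower (5.56%), and the chaperone CALR differed by -0.33. For cholesterol and fatty acid synthesis 6 of 30 (20%) were higher in all 4 sorts, beside 7.66% of all genes, with a median of 0.05 (0.11 without WM115 sort 2), and the cholesterol synthesis enzyme HMGCS1 differed by 0.35. For hypoxia and glycolysis 3 of 34 (8.82%) were higher, with the hexokinases HK2 and HK1 at 0.46 and -0.26 and the growth factor VEGFA at -0.28. For protein glycosylation 6 of 47 (12.8%) were higher and 8 (17%) lower, beside 7.66% and 7.74% of all genes. No gene of these 6 lists passed the threshold.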

How the data were processed

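Transcript levels were measured on Illumina HumanRef-8 version 2 arrays. The deposited intensity per probe is the mean bead signal from BeadStudio 3, per the labels, with no normalization between arrays stated, and the deposited detection p-value ranks a probe against that array's negative controls. The authors' joint table holds quantile normalized intensity, per the labels, and was used as an alternative. The files name no genome build. Intensity was corrected by normexp with an offset of 16, quantile normalized and taken to log2 in limma 3.58.1 with R 4.3.3. The model held 4 sort blocks and AC133 (3 residual and 5.16 prior degrees of freedom), with two-sided tests and Benjamini-Hochberg adjustment across the 11382 probes. The pairing comes from the labels, which name a shared sort. Deviations from group means correlated at 0.28 in Caco2 and 0.15 in WM115 within a sort. Whether duplicates came from separate cultures is not stated, so p-values measure the spread between these samples. All arrays lie on 1 slide. Beads and the number of arrays limit the precision. Of the 22184 probes, 19715 have 1 gene symbol, 0 several and 2469 none, and 19695 were named through the gene number.

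Genes named are PROM1, MELK, those past the threshold, up to 12 per direction with the smallest p among those with 1 direction in all 4 sorts, 5 per direction for the line difference, and up to 3 list members per direction. After values were seen, the list members were narrowed to those with an unadjusted limma p under 0.05, so that 57 were kept and 92 left out. Of those left out, 31 changed sign under at least 1 of 23 alternatives, against 0 of those kept. LUM, VIM, LYZ, FCER1G and CD68 were among those left out and are named only as cell type markers. A gene is represented by its probe with the highest mean signal. The members and lists were chosen with earlier results of these data known. The model was tested on simulated data. Alternatives changed the block, background, scaling, filter, variance model and weights, and left out sorts or arrays.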

Additional observations from a re-analysis of the deposited data

Results flagged for a closer look

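Of 25 named results tested for a sort far from the other 3, 1 stood out, and chance gives about 1 in 20. SH3BGRL3 had a difference of -0.82 log2 units in Caco2 sort 2, while the other sorts lay between -0.67 and -0.66. All 4 sorts had the lower signal in AC133 high cells.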

How the results depend on the processing

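No direction reversed among the 92 gene results recomputed under 23 alternatives. Of the list members left out by their p, 31 changed sign under at least 1. Genes named for 1 direction in all 4 sorts, and list members kept by their p, were chosen in ways that make a reversal unlikely. The lack of reversals therefore says little about how robust they are. The count of probes past the threshold was 4, all higher, and 4 under another background correction, offset or scaling, the authors' table, trend and robust variances, array weights and the filter on all 8 arrays, with the same 4 genes. It was 1 with no replicate block (PROM1; 1 higher), 2 with the filter on both arrays of 1 group (2 higher), 0 with no filter (0 higher; 1305 at an unadjusted p under 0.05) and 0 by the methods' t-test (0 higher; 716 unadjusted). PROM1 stayed at 3.89 with no filter (adjusted p 0.0612 over 22184 probes) and in the t-test (0.561), and was 3.40 to 4.08 over all alternatives. Leaving out a sort, or an array without the block, gave 1 to 94 probes, 1 to 25 higher and 0 to 69 lower. It was 8 without WM115 sort 2, and the 94 came without the WM115 negative array of sort 1. EPHA4 lost its call under 12 of the 23, EEF1A2 and CEACAM1 under 13. The count for the difference between lines was 1 with no replicate block, 4 with the filter on both arrays of 1 group, 3 with trend and robust variances and 0 to 127 when arrays were left out. The count for both lines at once was 0 with no filter and 0 by the t-test. With no filter, 1514 probes were higher and 1476 lower in all 4 sorts. The counts of list members over 3 sorts, without WM115 sort 2, were added after seeing the data. The causes were not tested. The number of arrays limits what could pass.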
